A study of Mus musculus with 4 samples.

Results

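Chromatin and zinc finger transcription regulators were read here as 10 genes picked by symbol, among 56748 gene rows in each count table: Chd7, Epc1, Wac, Phf14, Zfp292, Zfp462, Nrf1, Nfx1, Zeb1 and Topors. The choice used symbols and map position, and it was made with earlier results of these data known. The study sequenced lymph node RNA from 4 mice in which experimental autoimmune encephalomyelitis (EAE) had been induced, a disease in which immune cells attack the central nervous system. All 4 mice carried the disease. The BrQ group, replicates 1 and 3, had received 2-bromo-1,4-naphthalenedione, and the Vehicle group, also replicates 1 and 3, served as control. The labels name no strain, age, sex, dose or timing. Bulk lymph node holds many cell types, so fewer cells of a type and less RNA per cell cannot be told apart.

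Genes are packed on nucleosomes, and regulators of this kind act on that packing or on the DNA itself. Remodellers slide or evict nucleosomes, acetyltransferase complexes and ubiquitin ligases mark histones, and PHD fingers read such marks. Zinc finger and other DNA-binding factors recognise short motifs in promoters and enhancers. In lymph nodes, factors of these kinds take part in setting the identity and activation of lymphocytes.

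Promoter windows of the 250 bases before a RefSeq start (GRCm38.p6) were on hand for 5 of the 10 genes, with 8 windows in all. They are shown because 2 of the regulators, Nrf1 and Zeb1, bind short motifs known from textbooks. The core of the NRF1 motif, a pair of mirrored half-sites with 1 pyrimidine position, was searched on both strands, and so was the E-box bound by ZEB1, CAGGTG. The matches found lie in different windows and do not overlap. Capitals below mark matches.
Phf14, first start, chr6:11907579-11907828, plus strand: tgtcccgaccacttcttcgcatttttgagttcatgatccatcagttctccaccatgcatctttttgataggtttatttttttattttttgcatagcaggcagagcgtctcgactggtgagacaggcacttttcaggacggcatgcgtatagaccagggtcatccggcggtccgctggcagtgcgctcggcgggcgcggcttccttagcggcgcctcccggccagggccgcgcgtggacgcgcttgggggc
Phf14, second start, chr6:11925631-11925880, plus strand: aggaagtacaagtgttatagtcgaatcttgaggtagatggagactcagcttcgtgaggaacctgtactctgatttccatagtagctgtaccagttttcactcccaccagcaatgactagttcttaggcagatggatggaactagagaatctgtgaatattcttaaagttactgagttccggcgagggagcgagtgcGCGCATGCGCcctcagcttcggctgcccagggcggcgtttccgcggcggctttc
Topors, chr4:40269842-40270091, minus strand: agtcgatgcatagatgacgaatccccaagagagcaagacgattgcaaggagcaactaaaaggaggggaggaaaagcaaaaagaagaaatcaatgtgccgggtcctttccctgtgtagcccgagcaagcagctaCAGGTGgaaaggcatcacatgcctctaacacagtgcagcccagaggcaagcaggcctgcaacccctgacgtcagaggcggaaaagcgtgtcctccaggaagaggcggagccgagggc
Zfp292, chr4:34882949-34883198, minus strand: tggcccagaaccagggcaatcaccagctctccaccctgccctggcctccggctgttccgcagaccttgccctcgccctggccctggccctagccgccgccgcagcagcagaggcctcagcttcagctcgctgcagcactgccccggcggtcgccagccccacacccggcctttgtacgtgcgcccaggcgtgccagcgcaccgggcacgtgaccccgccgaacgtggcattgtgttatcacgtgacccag
The NRF1 core occurred in 1 of the 8 windows, that of the second start of Phf14, beginning 54 bases before it. Over all 32851 windows of the same length 1.83% held it. The E-box occurred once, in Topors, beginning 117 bases before the start, while 17.2% of all windows held it. Windows of Nrf1, Nfx1 and Zfp292 held neither. A match is a description of letters and not a binding site.

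Most symbols in these tables appeared to sit away from the reads of their own gene, and only parts of some chromosomes were taken as readable. The 10 genes lie on 3 of those chromosomes of GRCm38 (mm10). Chd7, Zfp292, Topors, Nfx1 and Zfp462 lie on chromosome 4 between 8690406 and 55083563. Phf14 and Nrf1 lie on chromosome 6 at 11907809 to 12081205 and 30047988 to 30153458, and Zeb1, Epc1 and Wac on chromosome 18 between 5591860 and 7929028. All are annotated as protein-coding genes. As a description of the surroundings, the 5 protein-coding genes on each side of a member were counted as filled when they averaged 50 reads. Nrf1 and Zeb1 had 9 filled neighbours of 10, Nfx1 had 8, Chd7, Epc1 and Topors had 7, Zfp292 and Zfp462 had 5, Phf14 had 4 and Wac had 3. The median over 21483 protein-coding genes was 2, so Phf14 and Wac had the thinnest surroundings of the 10. That a symbol holds its own gene's reads was not shown gene by gene, and in earlier work on these tables the readable parts of chromosomes 6 and 18 appeared under only some settings of the position rule.

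The 4 libraries held 6813832 to 7989226 reads in genes, and 87.0% to 89.0% of all counted reads fell in rows that name no gene. Mitochondrial reads made up 12.1% to 15.8% of the reads in genes for BrQ and 20.6% to 30.3% for Vehicle. Levels below are CPM, a gene's reads relative to all gene reads of its library, after TMM scaling. Before that scaling, the 10 genes together took 0.255% and 0.270% of gene reads in BrQ and 0.220% in each Vehicle library. After it, their sums were 2256 and 2376 CPM in BrQ and 2343 and 2695 CPM in Vehicle, so the groups overlapped. Of the fixed tissue markers, the B cell genes Pax5 and Cd72 summed to 2075 and 2126 CPM in BrQ and 3254 and 3391 in Vehicle. The T cell genes Il7r, Tox and Sit1 summed to 679.2 and 754.8 against 1005 and 1070 CPM, although Tox alone was higher in BrQ, at 76.0 ± 6.44 against 46.0 ± 0.859 CPM (SD, n = 2 each). The fibroblast gene Col1a2 stood at 11.5 and 13.6 CPM in BrQ and 17.9 and 25.5 in Vehicle. The stroma chemokine Ccl19 was at 0 to 3.41 CPM, and Ccl21a and the adipocyte gene Lep had no reads in any library. Both chemokines lie on the part of chromosome 4 taken as readable, where symbols were not checked gene by gene. B cell, T cell and fibroblast marker sums were thus lower in both BrQ libraries after TMM scaling, and their part in the results below was not tested.

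The comparison of BrQ with Vehicle asked whether these regulators differ in the lymph node after treatment. Of the 10 genes, all of which passed the low count filter, Phf14 and Nfx1 fell in BrQ and 0 rose, by edgeR's quasi-likelihood test with Benjamini-Hochberg adjustment over 10223 features and a threshold of 0.05. Over all features, 23.6% were called higher and 22.2% lower, so the members' 2 lower calls of 10 are near the background. At an unadjusted p under 0.05 there was 1 higher member, Zfp292, and 3 were lower, Phf14, Nfx1 and Nrf1. DESeq2 and limma voom also gave 0 higher and 2 lower. The median log2 fold change of the members was -0.16, against 0.05 over all features tested and -0.15 over the 468 tested on the readable stretches. On those stretches 20.7% were called higher and 24.1% lower. The result turns on the scaling: with library size alone 3 members were called higher and 0 lower. Over all 10223 features, that scaling called 3607 higher and 1072 lower, so the calls of all features moved the same way.

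**Figure D1:**
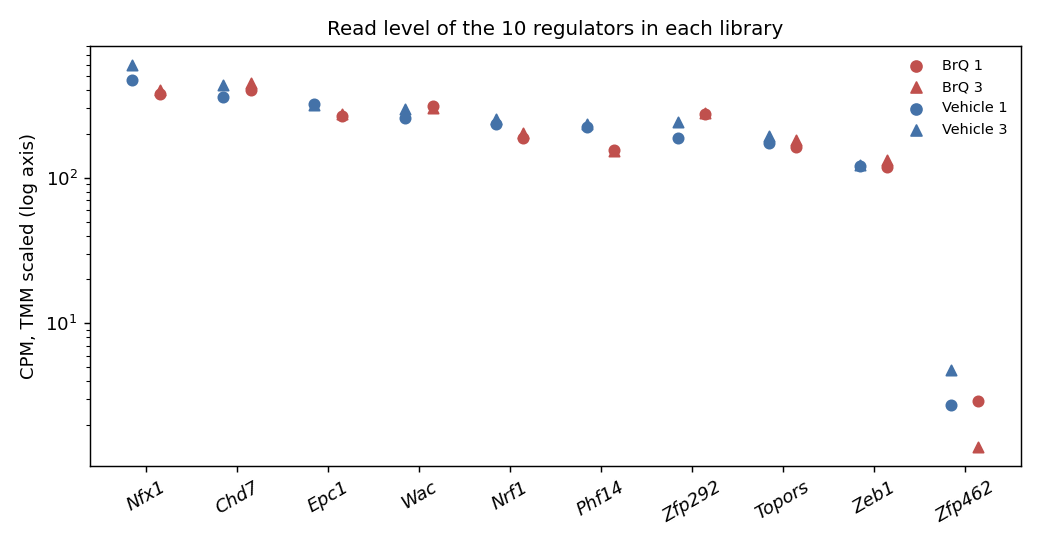
Each point is the read level of a gene in 1 library, in TMM-scaled CPM on a log axis, with BrQ in red and Vehicle in blue, circles for replicate 1 and triangles for replicate 3. The levels of 9 genes lie between 119.0 and 595.6 CPM, and Zfp462 lies below 5 CPM in every library.

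Phf14 encodes a protein with PHD fingers, the domains that read histone tails. It stood at 155.5 and 153.3 CPM in BrQ 1 and 3 and at 223.9 and 234.9 CPM in Vehicle 1 and 3. Both BrQ libraries lay below both Vehicle libraries, and within each group the mice differed by at most 1.05-fold. The means were 154.4 ± 1.56 and 229.4 ± 7.81 CPM (SD, n = 2 each), a 1.49-fold lower level in BrQ. Its log2 fold change was -0.57 ± 0.14 (SE; adjusted p = 0.00795 with edgeR), with a 95% interval, not adjusted for the number of features here or below, from -0.88 to -0.27. The adjusted p rose to 0.0613 without BrQ replicate 1 and to 0.0906 without BrQ replicate 3 (edgeR); the log2 fold change then stood at -0.57 and -0.55. With library size alone it was -0.20 (adjusted p = 0.369, edgeR), and counting every read row in the library size gave -0.36 (adjusted p = 0.0650, edgeR).

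Nfx1 encodes a zinc finger protein known for binding the X box of MHC class II promoters. Its level was 375.4 and 400.5 CPM in BrQ 1 and 3 and 466.7 and 595.6 CPM in Vehicle 1 and 3. The groups did not overlap, but the Vehicle mice differed 1.28-fold from each other. Its fall, a log2 fold change of -0.45 ± 0.15 (SE), passed with edgeR (adjusted p = 0.0321), with means of 531.1 ± 91.1 CPM for Vehicle and 388.0 ± 17.8 CPM for BrQ (SD, n = 2 each). Leaving out Vehicle replicate 3 gave -0.28 (adjusted p = 0.162, edgeR), BrQ replicate 1 -0.39 (adjusted p = 0.181) and BrQ replicate 3 -0.49 (adjusted p = 0.139). With no low count filter it was -0.42 (adjusted p = 0.145, edgeR), and with library size alone -0.07 (adjusted p = 0.759, edgeR). The call was also lost with all read rows as library size (-0.24, adjusted p = 0.206), with library size without mitochondrial reads (-0.29, adjusted p = 0.143) and with TMM factors from the stretches alone (-0.34, adjusted p = 0.0708), all by edgeR. Phf14 kept its call in 14 of 18 alternatives and Nfx1 in 9 of 18, with the sign lower throughout for both.

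Zfp292, a large protein with C2H2 zinc fingers, leaned the other way. It was at 273.5 and 278.3 CPM in BrQ 1 and 3 and at 188.6 and 242.6 CPM in Vehicle 1 and 3. The BrQ mice were nearly alike and lay above both Vehicle mice, which differed 1.29-fold. The log2 fold change of 0.36 ± 0.15 (SE) did not pass (adjusted p = 0.0846 with edgeR), with a 95% interval from 0.01 to 0.70. It passed as higher in 7 of 18 alternatives, among them library size alone (0.74, adjusted p = 0.00159, edgeR), library size without mitochondrial reads (0.52, adjusted p = 0.0185, edgeR) and without Vehicle replicate 3 (0.54, adjusted p = 0.0278, edgeR). Without Vehicle replicate 1 it was 0.16 (adjusted p = 0.408, edgeR). Its sign was higher in all 18.

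Zfp462, another C2H2 zinc finger protein, was the 1 member near the floor of detection. BrQ 1 held 23 reads and BrQ 3 held 11, while Vehicle 1 held 19 and Vehicle 3 held 31, so the groups overlapped. The exact 95% Poisson intervals, for counting error only, were 14.6 to 34.5 reads in BrQ 1, 5.49 to 19.7 in BrQ 3, 11.4 to 29.7 in Vehicle 1 and 21.1 to 44.0 in Vehicle 3. On the log2 scale the difference was -0.78 ± 0.52 (SE; adjusted p = 0.242 with edgeR), and its 95% interval from -1.95 to 0.38 spans both directions, so a difference was not detectable at this depth. With 1 library left out it ranged from -1.37 (without BrQ replicate 1) to -0.35 (without BrQ replicate 3). The other 9 genes had 803 to 3881 reads per library.

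Zeb1, a repressor with zinc fingers that binds E-boxes and is needed for normal T cell development, was at 119.0 and 132.6 CPM in BrQ 1 and 3 and at 121.3 and 123.2 CPM in Vehicle 1 and 3, with the Vehicle values inside the BrQ range. The log2 fold change was 0.04 ± 0.15 (SE; adjusted p = 0.835 with edgeR). Its 95% interval from -0.29 to 0.37 gives the size of change these mice leave possible under TMM scaling only. With library size alone the value was 0.41 (adjusted p = 0.0718, edgeR), outside that interval, and with all read rows as library size 0.25. Zeb1 shares 1.93% of its exonic bases with Gm10125 on the opposite strand, where reads are uncertain because the strand setting of the counting is not given.

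Nrf1 encodes nuclear respiratory factor 1, a DNA-binding activator of nuclear genes for mitochondria, and is no zinc finger protein. Its level was 186.7 and 203.7 CPM in BrQ 1 and 3 and 233.0 and 252.9 CPM in Vehicle 1 and 3. Both BrQ libraries lay below both Vehicle libraries. The log2 fold change of -0.32 ± 0.14 (SE) did not pass (adjusted p = 0.0872 with edgeR), with a 95% interval from -0.62 to -0.01. None of the 18 alternatives called it, and with library size alone it turned to 0.059.

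Chd7 encodes a nucleosome remodeller of the CHD family, with 3180 and 3470 reads counted in the BrQ mice and 2465 and 2850 counted in the Vehicle mice. Scaled, these were 401.7 and 447.7 CPM against 358.1 and 437.4 CPM, and the groups overlapped. This gave a log2 fold change of 0.09 ± 0.15 (SE; adjusted p = 0.619 with edgeR), with a 95% interval from -0.23 to 0.42. Library size alone was the 1 alternative that called Chd7, as higher (0.48, adjusted p = 0.0270, edgeR), and without Vehicle replicate 1 the sign turned (-0.066).

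Epc1 is a scaffold subunit of the NuA4/TIP60 histone acetyltransferase complex. It was at 267.5 and 273.0 CPM in BrQ 1 and 3 and at 319.2 and 314.3 CPM in Vehicle 1 and 3. The groups did not overlap and the mice of each group differed by at most 1.02-fold, but the log2 fold change of -0.23 ± 0.13 (SE) did not pass (adjusted p = 0.172 with edgeR; 95% interval -0.52 to 0.06). Its raw reads were nearly even, at 2118 and 2116 against 2197 and 2048, so its direction comes from the scaling, and with library size alone it turned to 0.14. Exons of Gm28529 and Mir1893 cover 7.20% of its exonic bases, the largest such share among the 10.

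Wac encodes an adaptor that brings the histone H2B ubiquitin ligase RNF20/RNF40 to transcribed genes. It was at 310.9 and 303.5 CPM in BrQ 1 and 3 and at 257.2 and 294.9 CPM in Vehicle 1 and 3, so BrQ lay above Vehicle by a small gap. Its log2 fold change was 0.15 ± 0.14 (SE; adjusted p = 0.379 with edgeR; 95% interval -0.15 to 0.46). Library size alone called it higher (0.53, adjusted p = 0.0143, edgeR). Rnf20, picked from the fixed list of other regulators after its values were seen because it is this partner, averaged 347.8 ± 3.80 CPM after BrQ and 321.1 ± 34.6 CPM after vehicle (SD, n = 2 each), a difference that missed the threshold (edgeR adjusted p = 0.517). Wac shares 4.39% of its exonic bases with Gm9993.

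Topors encodes a RING finger protein that acts as a ligase for ubiquitin and SUMO. It was at 162.6 and 181.7 CPM in BrQ 1 and 3 and at 172.5 and 194.1 CPM in Vehicle 1 and 3, and the groups overlapped. The log2 fold change was -0.09 ± 0.15 (SE; adjusted p = 0.635 with edgeR; 95% interval -0.42 to 0.23). Its sign was higher in 5 of 18 alternatives and lower in 13. Its start overlaps Smim27 on the opposite strand, over 2.93% of its exonic bases.

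**Figure D2:**
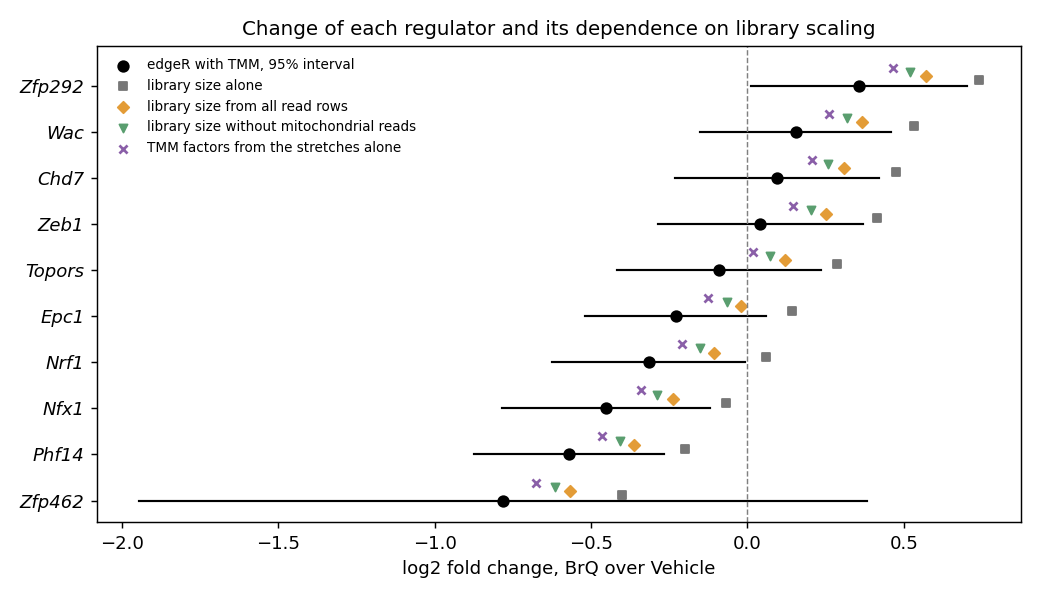
Black points are log2 fold changes of BrQ over Vehicle by edgeR with TMM scaling, with lines for the 95% interval, and coloured symbols give the same value under 4 other scalings. Every scaling shown moves all genes to the right, with library size alone furthest: Phf14 goes from -0.57 to -0.20 and Zfp292 from 0.36 to 0.74, while their order stays.

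Across the 10 genes, 2 had both BrQ libraries above both Vehicle libraries (Wac and Zfp292) and 4 had both below (Epc1, Phf14, Nrf1 and Nfx1), and the groups overlapped for the other 4. Over all features, 39.9% lay above and 36.2% below, so separation of 2 mice from 2 is common in these tables and is no result about the members.

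Because the scaling sets the direction of several genes, the reads were also expressed as each gene's share of the summed reads of the 10, which needs no scaling between libraries. Zfp292 took 12.1% and 11.7% of them in BrQ 1 and 3 and 8.05% and 9.003% in Vehicle 1 and 3. Chd7 took 17.8% and 18.9% against 15.3% and 16.2%, and Wac 13.8% and 12.8% against 10.97% and 10.95%. These 3 shares were larger in both BrQ libraries.

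Nfx1 took 16.6% and 16.9% in BrQ 1 and 3 and 19.9% and 22.1% in Vehicle 1 and 3. Phf14 took 6.89% and 6.45% against 9.56% and 8.72%, and Nrf1 8.28% and 8.58% against 9.95% and 9.39%. These 3 shares were smaller in both BrQ libraries. Zeb1 was slightly larger, at 5.28% and 5.58% against 5.18% and 4.57%, and Epc1, Topors and Zfp462 overlapped. A two-sided exact permutation test of 2 against 2 cannot go below p = 0.33, the value for each of the 7 separated shares, so that test cannot reach the threshold here, and no other test of the shares was made. Shares of 1 sum are not independent of each other. In CPM, 39.9% of all features had both BrQ libraries above both Vehicle libraries and 36.2% had both below. Separation of the shares is therefore no result about the members.

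**Figure D3:**
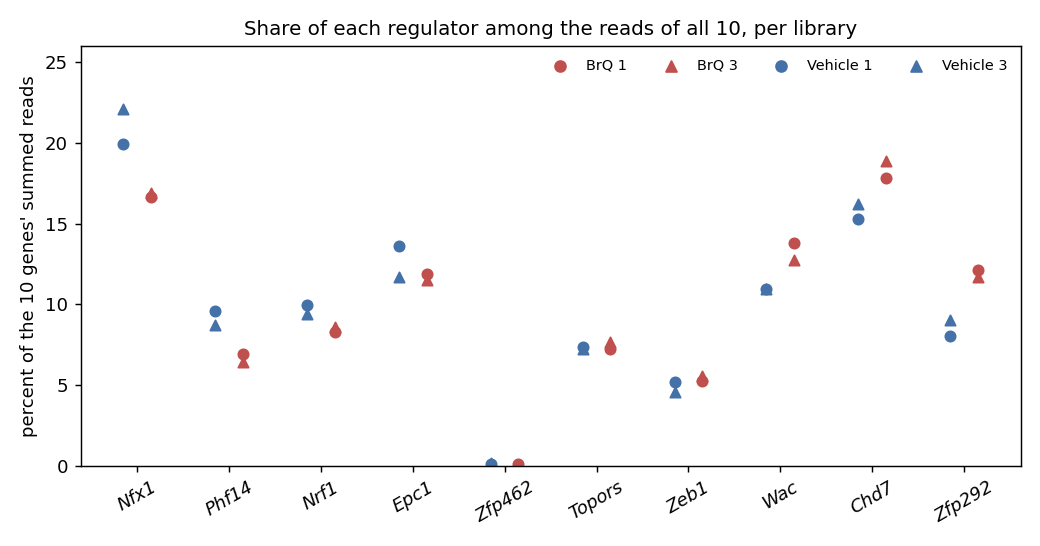
Points give the percent of the 10 genes' summed reads that each gene took in 1 library, ordered by the difference of BrQ minus Vehicle. Nfx1, Phf14 and Nrf1 lie lower in both BrQ libraries and Wac, Chd7 and Zfp292 higher.

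Ratios between 2 genes of 1 library also need no scaling. The reads of Phf14 were 0.569 and 0.551 times those of Zfp292 in BrQ 1 and 3, and 1.19 and 0.968 times in Vehicle 1 and 3. This ratio differed 1.92-fold between the groups, more than in any other of the 36 pairs without the sparsely read Zfp462. Zfp292 had 0.728 and 0.695 times the reads of Nfx1 in BrQ and 0.404 and 0.407 times in Vehicle. These pairs were singled out after their values were seen and share their genes and libraries, so they are given with no test.

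Per kilobase of exon, the order of levels over the 4 libraries ran from Epc1, at 59.8 to 71.3 CPM per kb, through Nfx1 at 43.8 to 69.5, Wac at 43.5 to 52.5 and Topors at 42.2 to 50.3. Each of these overlapped its neighbour in the order. Chd7 (25.98 to 32.5 CPM per kb), Zfp292 (18.9 to 27.9) and Nrf1 (18.2 to 24.6) followed below that group and overlapped in turn. Zeb1 at 11.6 to 12.9 and Phf14 at 9.56 to 14.7 CPM per kb could not be ordered, and Zfp462, at 0.133 to 0.444, lay below all others. The lengths are those of all annotated exons joined, so a gene with long rarely used exons reads low.

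A wider list of 38 other chromatin and transcription regulators on the readable stretches gives the surroundings of this set. Of these, 28 had enough reads to be tested, 10 were called higher and 1 lower in BrQ with edgeR, and 17 did not pass. Over all features tested 23.6% were higher and 22.2% lower, and on the stretches 20.7% and 24.1%. Their median log2 fold change was 0.26. The largest rise was that of Nr4a3, an orphan nuclear receptor, with a log2 fold change of 2.37 ± 0.17 (SE; adjusted p = 3.65e-05 with edgeR). The only fall was that of Creb3, a membrane-bound bZIP factor, with -0.44 ± 0.14 (SE; adjusted p = 0.0273 with edgeR), from 221.0 ± 16.2 CPM to 162.6 ± 5.88 (SD, n = 2 each). With library size alone 18 were called, all of them higher, and without BrQ replicate 3 the count was 4. The list holds Tox and Pax5, which also serve as cell markers above, and it was drawn up with earlier results of these data known.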

How the data were processed

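Lymph node RNA of 4 mice was sequenced in paired ends, 1 library per mouse, per the labels' protocols. The deposited files hold unnormalised counts of reads for each gene. Per the submitters' processing notes, the software included HISAT2 2.1.0 and HTSeq 0.11.2, next to Trim Galore 0.6.2, with mm10 as the genome. No source used here gives the annotation release or the strand setting. Closing rows that name no gene (87.0% to 89.0% of all counted reads) stayed out of library sizes and tests. Positions and exon lengths came from GENCODE M21 on GRCm38.

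Members, lists and the readable stretches were chosen with earlier results of these data known. The stretches were set in whole megabases: chromosome 4 from 3 to 63, chromosome 6 from 3 to 18 and 28 to 31, chromosome 15 from 8 to 39 and chromosome 18 from 3 to 11. The text names all 10 members and, of 38 other regulators, the largest rise and fall that passed. It also names Rnf20, the partner of Wac, picked after its values were seen, and Tox and Pax5 as cell markers.

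The test was edgeR 4.0.16 in R 4.3.3 (quasi-likelihood without legacy mode, TMM, filterByExpr), fitted on the 4 libraries with no covariate beside group and adjusted by Benjamini-Hochberg over all features. SEs were taken as the log2 fold change divided by the square root of F. The script was tested on simulated data. DESeq2 1.42.0, voom in limma 3.58.1 and other scalings, filters, blocks and left-out libraries were alternatives. With 2 mice per group, the spread behind each p-value comes from these mice alone, and the fit pools part of it over all features. The libraries of a group differed beyond counting noise (chi-square over its degrees of freedom 12.4 in BrQ and 26.6 in Vehicle). That value used library totals without TMM scaling and included mitochondrial genes, so it is not the spread used in the tests. Some promoters are not reported here. Figures used matplotlib 3.10.9.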

Additional observations from a re-analysis of the deposited data

How the results depend on the processing

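Relative to TMM, library size alone moved the median of all features by 0.37 on the log2 scale, all read rows as library size by 0.21, library size without mitochondrial reads by 0.16 and TMM factors from the stretches alone by 0.10. The last 2, the legacy fit and the crossed block were chosen after seeing the data. Over all features, 2409 were called higher and 2267 lower with TMM, and 3607 and 1072 with library size alone. With all read rows as library size these counts were 3060 and 1587. Members called higher in BrQ went from 0 to 3 with library size alone, and to 1 with all read rows as library size, with at least 10 CPM in 2 libraries, with library size without mitochondrial reads and with TMM factors from the stretches alone. In these last 4, and without Vehicle replicate 3, that member was Zfp292. Members called lower went from 2 to 0 with library size alone, with all read rows as library size, without BrQ replicate 1 and without BrQ replicate 3. They went to 1 with no low count filter, with the replicate block, without Vehicle replicate 3, with library size without mitochondrial reads and with TMM factors from the stretches alone. Leaving out 1 library gave 0 to 1 higher and 0 to 2 lower members. For the other regulators, 11 called became 18 with library size alone and 6 with no low count filter, and 4 to 8 with 1 library left out. The cause was not tested. Where a library is left out its group is 1 mouse, assumed to vary like the other group.

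Signs turned for 5 members, none of them called. Epc1 went to 0.14 and Nrf1 to 0.059 with library size alone. Topors went to 0.29 with library size alone, 0.12 with all read rows as library size, 0.073 with library size without mitochondrial reads, 0.018 with TMM factors from the stretches alone and from -0.20 to 0.00093 with 1 library left out, the latter without BrQ replicate 1. Zeb1 went to -0.00098 with RLE factors, -0.0028 with upper quartile factors, -0.00099 with DESeq2 and from -0.028 (without BrQ replicate 3) to 0.13 with 1 library left out. Chd7 ranged from -0.066 (without Vehicle replicate 1) to 0.23 with 1 library left out. The signs of Phf14, Nfx1, Zfp462, Zfp292 and Wac held in every alternative that tested them.

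The replicate numbers name separate mice and were not taken as pairs. Within-group differences of same-numbered libraries correlated at -0.14 over 10223 features and at -0.25 over the 5669 features of at least 10 CPM. With the replicate number as a block, 0 members were called higher and 1 lower, Phf14, and Nfx1 had an adjusted p of 0.0504 (edgeR), while 7 other regulators were called. Because the correlation was negative, a crossed block was also fitted, joining BrQ replicate 1 with Vehicle replicate 3 and BrQ replicate 3 with Vehicle replicate 1. With the crossed block, 1 member was called higher and 2 lower.

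Depth limits Zfp462 alone among the members.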
